A study of Mus musculus with 8 samples.

Results

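The complement genes of osteoclast precursor (OCP) cells were examined by RNA-seq in the presence and absence of extracellular peroxiredoxin 1 (PRDX1) and RANKL. The 9 genes were chosen by name: the C1q chains C1qa, C1qb and C1qc, the components C3, Cfb and Cfp, the receptors C3ar1 and C5ar1, and the inhibitor gene Serping1. The choice was made with earlier results of these data known. All 9 had a row among the 25124 genes measured. OCP cells are adherent bone marrow macrophages of mice (labelled C57BL/6, 6 to 8 weeks old) that become osteoclasts when given RANKL. All 4 groups received M-CSF (30 ng/mL), the growth factor that keeps these cells alive, and each was sampled after 48 h as 2 libraries. The no PRDX1 + no RANKL group received M-CSF alone, the PRDX1 + no RANKL group received recombinant PRDX1 (200 nM), the no PRDX1 + RANKL group received RANKL (100 ng/mL), and the PRDX1 + RANKL group received both. The PRDX1 was a His-tagged protein made in bacteria and passed over an endotoxin-removal resin. The labels do not say whether the 2 libraries of a group came from separate animals or cultures, so p-values measure only the spread between these libraries, which may be technical.

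Complement is a set of proteins that bind to microbes, dying cells and immune complexes. C1q, built from A, B and C chains, starts the classical pathway and is made mainly by macrophages rather than by the liver. C3 is the protein on which all the pathways converge, factor B (Cfb) supplies the protease of the alternative pathway's C3 convertase, and properdin (Cfp) stabilises that convertase. Cleavage of C3 and C5 releases the peptides C3a and C5a, which act on myeloid cells through the receptors C3AR1 and C5AR1. C1 inhibitor (Serping1) blocks the proteases that associate with C1q.

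Values are FPKM, the fragments counted on a gene's exons divided by the length of its transcript and by the size of the library, and can be compared between genes because they are per length. Library totals were 27284658 to 46171828 counted reads, as recovered from the FPKM values. Fold changes were fitted on log2(FPKM + 1) with limma over all 11700 genes with a mean of at least 0.5 FPKM, and understate the change of low genes. A gene was taken to have risen or fallen when its Benjamini-Hochberg adjusted p, over all genes tested, was under 0.05 and its fold change at least 1.5. The label of the cells was checked first. The 8 macrophage markers, such as Csf1r, Adgre1 and Cd68, were all above 0.5 FPKM in every group, with a sum of 15718 to 17485 FPKM in the controls, 16547 to 17009 with PRDX1, 9857 to 10278 with RANKL and 13421 to 13821 with both. The 8 osteoclast markers, such as Ctsk and Acp5, summed to 36.0 to 36.5, 66.5 to 67.2, 1678 to 1796 and 222 to 231 FPKM in the same order. Markers of other cells were low, but some moved with the groups. Neutrophil markers summed to 12.03 to 13.8 FPKM in the controls, 14.8 to 15.4 with PRDX1, 4.31 to 5.47 with RANKL and 13.1 to 13.6 with both. Mmp8 carried this sum and was lowest with RANKL alone (11.1, 10.04, 2.99 and 8.74 FPKM on average), whereas the other 7 together were at 1.84, 5.08, 1.91 and 4.60 FPKM, higher in both groups given PRDX1. B cell markers summed to 0.589 to 0.976, 1.59 to 2.13, 0.631 to 0.922 and 1.37 to 1.61 FPKM, higher in both groups given PRDX1. Dendritic cell markers lay between 2.12 and 3.62 FPKM, with Siglech higher in both groups given PRDX1 (0.742, 1.78, 0.922 and 1.74 FPKM on average) and Cd209a highest in the controls (1.25, 0.602, 0.545 and 0.460 FPKM). T and NK cell and erythroid markers were at most 0.179 and 0.381 FPKM. The part of these cells in the results was not tested.

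The C1q genes lie side by side on the minus strand of chromosome 4 (mm10), within 18719 bases. C1qb occupies chr4:136880126-136886200, C1qc chr4:136889802-136892914 and C1qa chr4:136895916-136898844, with 3601 bases between the first pair and 3001 bases between the second, and each has 3 exons. C3 (chr17:57203967-57228136, 41 exons) and Cfb (chr17:34856374-34862514, 18 exons) lie on chromosome 17. Cfp is at chrX:20925454-20931555 (9 exons), C3ar1 at chr6:122847140-122856157 (2 exons), C5ar1 at chr7:16246743-16259540 (3 exons) and Serping1 at chr2:84765360-84775429 (8 exons). All 9 are on the minus strand. Nelfe, at 23.1 to 27.0 FPKM, lies 1 base from Cfb on the other strand and C2, at 0.223 to 1.42 FPKM, 87 bases from it on the same strand. Reads were counted on both strands, and whether reads of Nelfe were counted on Cfb was not tested. The microRNA genes Mir6972 and Mir6978 lie inside Cfb and C3, at no more than 1.608 and 0.427 FPKM.

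The 250 bases before the start site were read from RefSeq (GRCm38.p6) for the 6 members with an entry, and the 4 with a match to a motif searched are shown. The windows are chr4:136886201-136886450 for C1qb, chr4:136892915-136893164 for C1qc, chr17:57228137-57228386 for C3 and chr6:122856158-122856407 for C3ar1, each written 5′ to 3′ on the minus strand. Capitals mark matches to the motifs searched.
C1qb: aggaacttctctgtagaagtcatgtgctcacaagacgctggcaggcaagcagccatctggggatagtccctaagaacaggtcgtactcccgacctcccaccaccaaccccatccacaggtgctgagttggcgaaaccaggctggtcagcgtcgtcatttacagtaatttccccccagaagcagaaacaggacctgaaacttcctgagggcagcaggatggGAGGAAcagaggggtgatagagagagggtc
C1qc: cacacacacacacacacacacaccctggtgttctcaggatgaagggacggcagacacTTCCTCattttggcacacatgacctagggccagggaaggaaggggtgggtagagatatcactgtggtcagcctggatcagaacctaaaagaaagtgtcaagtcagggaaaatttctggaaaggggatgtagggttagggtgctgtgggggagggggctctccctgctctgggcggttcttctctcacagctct
C3: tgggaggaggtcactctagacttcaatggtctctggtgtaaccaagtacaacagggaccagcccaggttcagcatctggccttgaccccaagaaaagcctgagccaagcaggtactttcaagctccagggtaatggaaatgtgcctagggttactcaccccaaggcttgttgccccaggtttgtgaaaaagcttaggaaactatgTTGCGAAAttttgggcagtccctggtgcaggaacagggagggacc
C3ar1: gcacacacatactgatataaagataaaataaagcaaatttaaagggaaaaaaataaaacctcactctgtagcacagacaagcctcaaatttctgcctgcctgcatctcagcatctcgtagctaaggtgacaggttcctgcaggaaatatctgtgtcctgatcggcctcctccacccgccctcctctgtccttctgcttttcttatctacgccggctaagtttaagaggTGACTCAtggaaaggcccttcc

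A set of 7 letter patterns was searched on both strands of the 6 windows (C1qb, C1qc, C3, C3ar1, C5ar1 and Cfp). C1qa, Cfb and Serping1 had no window and were not searched. The window of C5ar1 was set by a RefSeq start site (16259338) that differs from that of the transcript counted (16259540). The PU.1 core GAGGAA, a motif of the factor that sets macrophage identity, was found 30 to 25 bases before the start of C1qb and, as its reverse complement, 193 to 188 bases before that of C1qc, and in 23.3% of the 32851 RefSeq windows of this length. The C/EBP pattern TTGCNNAA lay 45 to 38 bases before the start of C3 (9.56% of all windows), and the AP-1 pattern TGANTCA lay 22 to 16 bases before that of C3ar1 (6.75% of all windows). The MAF half-site TGCTGAC (3.81% of all windows), the NF-kB pattern (1.21%), the IRF pattern (2.98%) and the STAT pattern TTCNNNGAA (7.02%) were matched in 0 of the 6 windows. The matches marked do not overlap each other, and a match is a description of the sequence, not a site of binding.

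Of the 9 genes, 8 passed the filter on low values and were tested. In the absence of RANKL, PRDX1 raised 3 of the 8 (C3, Cfb and C3ar1) and lowered 0, where 3.8% of all genes tested rose and 1.99% fell. In the presence of RANKL, PRDX1 raised 7 of the 8, all but Cfp, and lowered 0, where 6.03% of all genes tested rose and 4.17% fell. RANKL without PRDX1 raised 2 (C3 and Cfb) and lowered 5 (the 3 C1q chains and both receptors), where 11.8% of all genes tested rose and 9.96% fell. RANKL on top of PRDX1 raised 1 (C3) and lowered 3 (the C1q chains), where 4.52% rose and 3.98% fell. The median log2 fold change of the 8 was −0.01, 1.57, −1.41 and −0.45 in these 4 comparisons, against −0.04, −0.06, 0.10 and 0.07 for all genes tested. The comparisons share libraries and are not independent of each other. Since the members were chosen with earlier results of these data known, their counts and medians are a description.

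**Figure D1:**
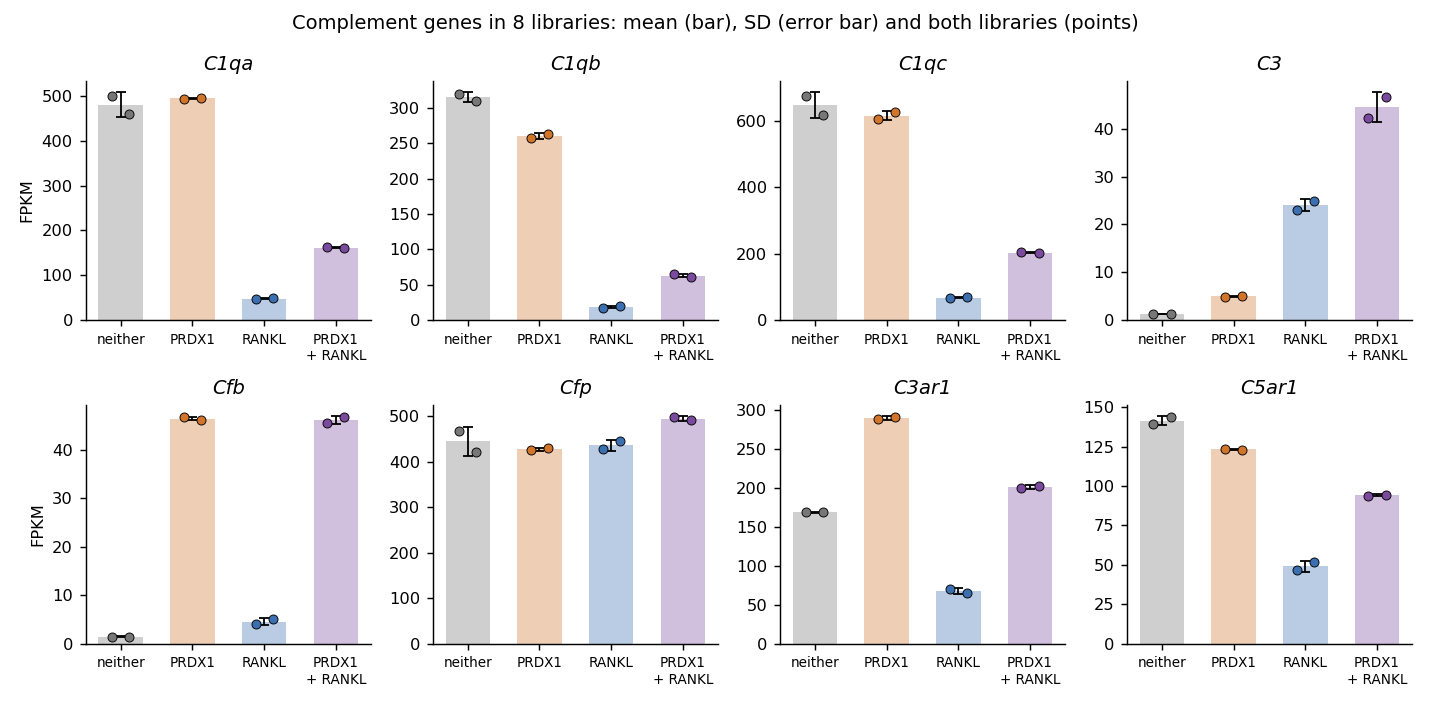
Expression of the 8 complement genes tested, in FPKM on linear axes that start at 0 and differ between genes, in the 4 groups (neither, PRDX1, RANKL, and both). Bars are means of 2 libraries, error bars are SD and points are the libraries. The C1q chains were lowest with RANKL alone, Cfb was near 46 FPKM in both PRDX1 groups, and Cfp lay between 421.8 and 498.7 FPKM throughout.

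The C1q genes were among the most abundant transcripts of the untreated cells. C1qc, the C chain, stood at 674 and 619 FPKM in the 2 control libraries, 605 and 626 with PRDX1, 66.5 and 67.9 with RANKL, and 204 and 201 with both. The RANKL libraries were far below the control libraries and did not overlap any other group, and the libraries given both factors lay between them and the controls. By level, C1qc ranked 73 among the 11700 genes tested in the controls and 1169 with RANKL alone.

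C1qa, the A chain, was at 499.6 and 460.0 FPKM in the controls, 494 and 495 with PRDX1, 46.8 and 48.5 with RANKL, and 162 and 161 with both. Control and PRDX1 libraries overlapped, whereas the other groups were each apart. C1qb, the B chain, was at 319.9 and 310.1 FPKM in the controls, 257 and 263 with PRDX1, 17.6 and 19.9 with RANKL, and 64.7 and 61.2 with both. All 4 groups were apart for this chain.

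Upon RANKL treatment in the absence of PRDX1, C1qb fell by 4.0 on the log2 scale (SE 0.06, adjusted p = 2.67e-11), a 16.8-fold lower mean FPKM and the fourth largest decrease of the 1165 genes that fell. C1qa fell by 3.30 (SE 0.05, adjusted p = 2.48e-11) and C1qc by 3.24 (SE 0.05, adjusted p = 2.67e-11), or 10.1-fold and 9.61-fold in mean FPKM. PRDX1 added with RANKL raised C1qa by 1.74 (adjusted p = 7.86e-09), C1qb by 1.70 (adjusted p = 2.36e-08) and C1qc by 1.58 (adjusted p = 1.22e-08) over RANKL alone. The level still stayed below that without RANKL: with PRDX1 in both groups, RANKL lowered the log2 value of C1qa by 1.61, of C1qb by 2.03 and of C1qc by 1.6 (highest adjusted p = 1.55e-08).

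Without RANKL, PRDX1 did not move the C1q chains past the threshold. The log2 difference was 0.04 for C1qa (adjusted p = 0.529) and −0.07 for C1qc (adjusted p = 0.327), and −0.28 for C1qb (adjusted p = 0.00657), which is under 1.5-fold. The effect of PRDX1 differed between the presence and absence of RANKL, by 1.97 for C1qb (interaction, adjusted p = 3.98e-07), 1.69 for C1qa (adjusted p = 2.90e-07) and 1.65 for C1qc (adjusted p = 3.46e-07), on the log2 scale. Among all genes tested, this interaction was at least 1.5-fold and past the threshold in 4.5% upward and 4.35% downward, and 5 of the 8 members were among the former and 1, Cfb, among the latter. With no minimum size, the interaction had an adjusted p under 0.05 for all 8 members and for 23.1% of all genes tested, but that of Cfp did not hold under 7 of the 15 alternatives (highest adjusted p = 0.120).

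Summed over the 3 chains, C1q transcripts amounted to 1493 and 1389 FPKM in the controls, 1356 and 1385 with PRDX1, 131 and 136 with RANKL, and 431 and 423 with both. The mean was 95.1%, 9.27% and 29.6% of the control in the 3 treated groups. The summed macrophage markers were at 101%, 60.6% and 82.0% of the control in the same groups, but Lyz2 made up 85.0% of that sum in the controls. One by one, all 8 markers were lower with RANKL alone, at 7.53% (Fcgr1), 21.1% (Mertk), 31.8% (Cd14) and up to 84.4% (Cd68) of the control, and only that of Fcgr1 was below the share left of C1q. With both factors Fcgr1 was at 45.5%, Mertk at 51.3%, Csf1r at 60.7% and Cd14 at 70.2%. Lyz2 was then at 82.0%, Itgam at 91.6%, Cd68 at 94.7% and Adgre1 at 108.7%, above the control. In bulk RNA, fewer cells of a type and less RNA per cell cannot be told apart, and the part of cell composition in these values was not tested.

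The chains did not keep the same proportions. The FPKM ratio of C1qa to C1qb was 1.56 and 1.48 in the controls, 1.92 and 1.88 with PRDX1, 2.66 and 2.44 with RANKL, and 2.5 and 2.63 with both. C1qb made up 21.9% ± 0.639 of the summed C1q FPKM in the controls (SD, n = 2), 19.0% ± 0.0548 with PRDX1, 14.0% ± 0.804 with RANKL and 14.7% ± 0.399 with both. The ratio of C1qc to C1qa ranged only from 1.23 to 1.42 over the 8 libraries. At least 3808 C1q reads were counted in every library.

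**Figure D2:**
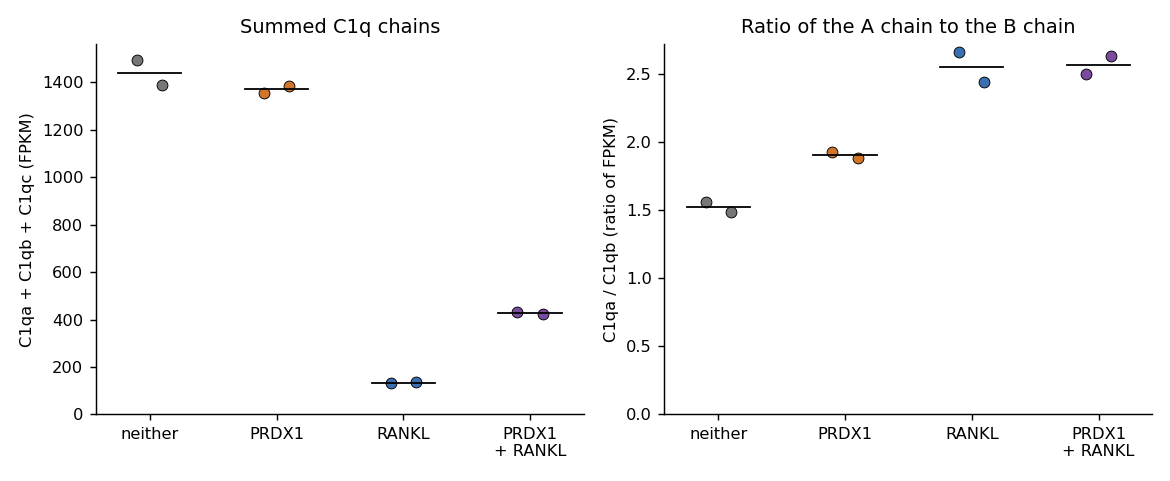
Left, FPKM summed over C1qa, C1qb and C1qc in each of the 8 libraries (points) with the group mean (line). Right, the FPKM ratio of C1qa to C1qb, on axes that start at 0. The sum falls to 131 and 136 FPKM with RANKL alone and is 431 and 423 FPKM with both factors, and the ratio is lowest in the controls (1.56 and 1.48).

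C3 was higher with either factor and highest with both. Its level was 1.26 and 1.24 FPKM in the controls, 4.91 and 5.06 with PRDX1, 23.1 and 24.97 with RANKL, and 42.3 and 46.7 with both. No groups overlapped. C3 rose with PRDX1 alone by 1.41 on the log2 scale (SE 0.07, adjusted p = 7.26e-07) and with RANKL alone by 3.48 (SE 0.07, adjusted p = 2.13e-10), which was 19.2-fold in mean FPKM. RANKL alone gave more C3 than PRDX1 alone, by 2.06 (adjusted p = 6.11e-09). PRDX1 on top of RANKL raised C3 by a further 0.86 (adjusted p = 9.80e-06), so that mean FPKM with both was 35.6-fold that of the controls. The interaction was −0.55 (adjusted p = 0.00385), under 1.5-fold on this scale, and −1.03 with a pseudocount of 0.1 FPKM, which weighs the low control level of C3 more.

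Cfb was highest in both groups given PRDX1. It was at 1.49 and 1.42 FPKM in the controls, 46.7 and 46.2 with PRDX1, 4.10 and 5.02 with RANKL, and 45.5 and 46.7 with both. The libraries of the 2 PRDX1 groups overlapped, and all were above every library without PRDX1. PRDX1 raised Cfb by 4.27 on the log2 scale in the absence of RANKL (SE 0.08, adjusted p = 1.30e-09), 31.9-fold in mean FPKM and the second largest increase of the 445 genes that rose. In the presence of RANKL the increase was 3.09 (SE 0.08, adjusted p = 5.60e-09), 10.1-fold in mean FPKM and the third largest of 705. RANKL alone raised Cfb by 1.17 (adjusted p = 8.08e-07), whereas with PRDX1 present the difference made by RANKL was −0.01 (95% confidence interval −0.19 to 0.17, adjusted p = 0.928). The interaction was −1.19 (adjusted p = 6.27e-05).

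The summed markers of stromal cells, which can also make complement components, rose with PRDX1, as C3 and Cfb did. With RANKL alone C3 and Cfb rose, whereas the stromal sum overlapped that of the controls. The 8 markers summed to 8.15 to 10.9 FPKM in the controls, 17.3 to 17.5 with PRDX1, 7.92 to 9.97 with RANKL and 16.2 to 20.01 with both. Most of this sum came from the collagen genes Col1a1, at 3.53, 5.99, 3.22 and 6.32 FPKM on average in the same order, and Col1a2, at 4.48, 8.98, 4.19 and 8.70 FPKM. The other 6 were lower, with Lum, Pdgfra and Dcn at no more than 0.023, 0.147 and 0.984 FPKM in any library. Pdgfrb was nearly level, at 0.4225, 0.446, 0.4825 and 0.522 FPKM on average in the same order. Their part in the values of C3 and Cfb was not tested.

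Cfp was abundant and nearly level. Properdin transcripts were at 468 and 422 FPKM in the controls, 425 and 429 with PRDX1, 428 and 445 with RANKL, and 499 and 491 with both, with the highest library 1.18 times the lowest. The control group spanned the PRDX1 group, and the group given both factors was above the rest. Cfp passed the fold threshold in 0 of the 4 comparisons: the log2 difference was −0.06 for PRDX1 alone (95% confidence interval −0.17 to 0.06, adjusted p = 0.457), −0.03 for RANKL alone (−0.14 to 0.09, adjusted p = 0.688), 0.18 for PRDX1 on top of RANKL (adjusted p = 0.0167) and 0.21 for RANKL on top of PRDX1 (adjusted p = 0.00832). Of the 8 genes, Cfp was the only one that RANKL left under the threshold both with and without PRDX1.

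The receptor for C3a rose with PRDX1 in both settings. C3ar1 was at 169 and 169 FPKM in the controls, 288 and 291 with PRDX1, 70.3 and 65.4 with RANKL, and 199.8 and 203 with both, and the 4 groups did not overlap. PRDX1 raised it by 0.78 on the log2 scale without RANKL (SE 0.05, adjusted p = 1.70e-06) and by 1.56 with RANKL (SE 0.05, adjusted p = 1.01e-08), or 2.97-fold in mean FPKM. RANKL alone lowered it by 1.30 (adjusted p = 5.82e-09). With PRDX1 present, the RANKL difference was −0.52 (adjusted p = 1.52e-05), under 1.5-fold, and the interaction was 0.78 (adjusted p = 2.55e-05).

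The receptor for C5a was not raised by PRDX1 in the absence of RANKL. C5ar1 was at 139.6 and 144 FPKM in the controls, 124 and 123 with PRDX1, 46.8 and 51.7 with RANKL, and 93.8 and 94.5 with both. These groups were also apart, with the controls highest rather than the PRDX1 libraries. PRDX1 alone changed C5ar1 by −0.20 on the log2 scale (adjusted p = 0.0187), under 1.5-fold, RANKL alone lowered it by 1.51 (SE 0.05, adjusted p = 5.93e-09), and PRDX1 on top of RANKL raised it by 0.92 (SE 0.05, adjusted p = 7.04e-07). The interaction was 1.12 (adjusted p = 6.92e-06). The FPKM ratio of C3ar1 to C5ar1 was 1.21 and 1.17 in the controls, 2.33 and 2.37 with PRDX1, 1.5 and 1.27 with RANKL, and 2.13 and 2.15 with both, so that it was higher in all 4 libraries with PRDX1 than in all 4 without it.

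Serping1 was close to the limit of detection. Its 8 libraries held 10 reads in all, with 0 reads in 4 libraries and at most 4 reads, or 0.063 FPKM, in any of the others. A library with 0 reads allows up to 3 reads, which corresponds to 0.0480 to 0.0607 FPKM for this transcript in those 4 libraries, and intervals of this kind cover counting error only. It was not tested, and no difference between the groups was detectable at this depth.

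**Figure D3:**
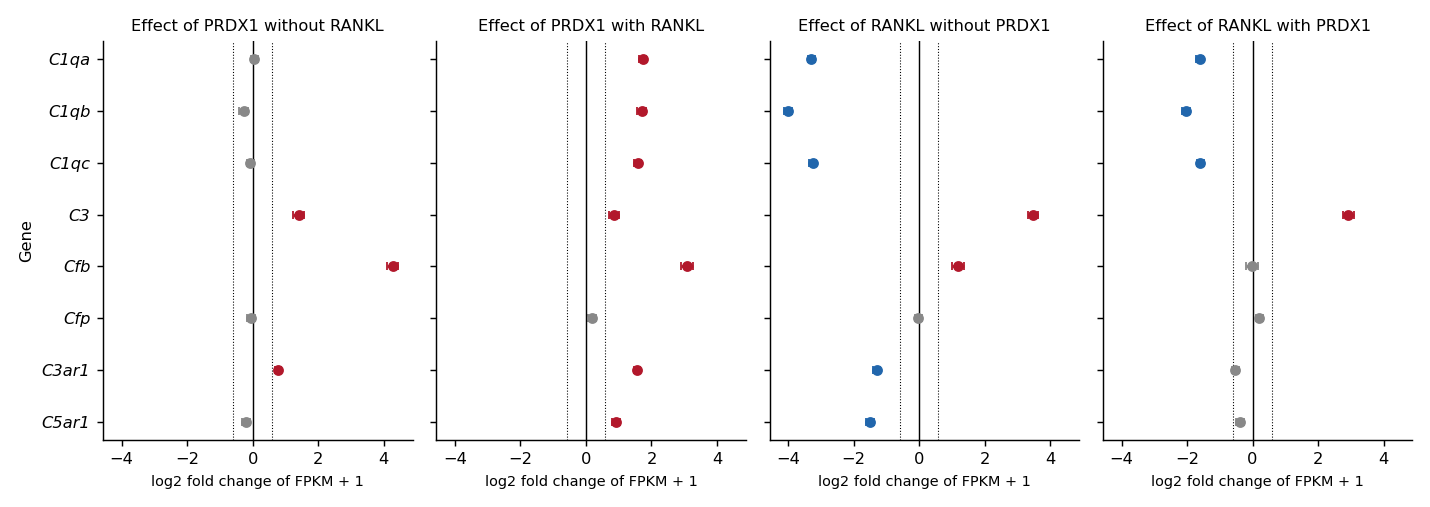
Fitted log2 fold changes of FPKM + 1 with 95% confidence intervals (bars) for the 8 genes tested, in 1 panel for each of the 4 comparisons. Red and blue points rose or fell past both thresholds, grey points did not, and dotted lines mark 1.5-fold. With RANKL present, 7 of the 8 points for PRDX1 are red, and with RANKL alone 5 are blue.

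Both factors together were also set against neither. C3 and Cfb rose, by 4.34 and 4.26 on the log2 scale, and the 3 C1q chains fell, by 1.57 for C1qa, 2.31 for C1qb and 1.67 for C1qc (highest adjusted p of the 5, 6.27e-09), where 7.5% of all genes tested rose and 5.34% fell. The receptors were nearer to the control level, at 0.25 for C3ar1 (adjusted p = 0.00135) and −0.58 for C5ar1 (adjusted p = 1.19e-05), both under 1.5-fold. Against PRDX1 alone, RANKL alone gave 1 higher member, C3, and 6 lower ones, all but Cfp, where 14.3% of all genes tested were higher and 10.7% lower. That balance of all genes, 1677 higher to 1255 lower, turned to 1217 to 1484 with upper quartile scaling and 1231 to 1466 with quantile normalization.

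Between each pair of groups, most members did not overlap: 5 of 8 for PRDX1 without RANKL, 8 for PRDX1 with RANKL, 7 for RANKL without PRDX1 and 7 for RANKL with PRDX1. The same held for 65.8%, 71%, 77.9% and 74.3% of all genes tested, so that with 2 libraries a group this alone does not set the complement genes apart.

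The likeness between genes was measured as the root mean square difference of log2(FPKM + 1) over the 8 libraries, each gene centred on its own mean. Among the members, C1qa and C1qc were closest (0.0725), C1qb was farther from C1qa (0.305), the receptors differed by 0.415, and C3 and Cfb by 1.83. Outside the group, the nearest of all genes tested to C1qa were Cd36 (0.166), a scavenger receptor, and Nrp1 (0.166), and those to C1qb were Rnase4 (0.201) and Gas6 (0.229), a bridging ligand in the uptake of dying cells. The nearest to C1qc were Nrp1 (0.125) and Ccnd2 (0.154). Cfb lay nearest to Saa3 (0.281), an acute-phase serum amyloid gene, and to the chemokine gene Ccl5 (0.418). C3 had no close neighbour, with Ly6i (0.410) and Vcan (0.477) nearest. Ly6i was near the floor in the controls, at 0 and 0.188 FPKM, so its likeness to C3 is uncertain there. C3ar1 lay nearest to Ms4a6d (0.0383) and Rnf128 (0.0548), and C5ar1 to Il21r (0.0475) and the inflammasome gene Nlrp3 (0.0530). The nearest to the level pattern of Cfp were Nemp1 (0.0304) and Elk1 (0.0430), the latter lying 1839 bases from Cfp.

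Other genes of the complement system were then listed by role, 44 in all. Of these, 43 had a row under that name, 14 passed the filter, and 9 were at 0 FPKM in all 8 libraries. PRDX1 without RANKL raised 2 of the 14 (3.8% of all genes tested rose), and PRDX1 with RANKL raised 4 and lowered 1 (6.03% and 4.17% of all genes). Each of these counts of raised genes includes C2, which passed the filter only through the groups given PRDX1, so nothing is read from them against the share of all genes. RANKL without PRDX1 raised 4 and lowered 2 (11.8% and 9.96% of all genes), and RANKL with PRDX1 raised 1 and lowered 1 (4.52% and 3.98% of all genes). Their median log2 fold changes were 0.06, −0.00063, 0.22 and 0.08 in these comparisons, against −0.04, −0.06, 0.10 and 0.07 for all genes tested.

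In the classical pathway, C1ra, a protease that binds C1q, fell by 0.75 with RANKL (adjusted p = 1.90e-04) and was 0.82 higher with PRDX1 on top of RANKL (adjusted p = 2.15e-04). It was at 1.36 ± 0.00566 FPKM with RANKL alone and at 2.98 ± 0.190 in the controls (SD, n = 2 here and below). C2, the classical counterpart and genomic neighbour of Cfb, was at 0.383 ± 0.0771 FPKM in the controls and 1.13 ± 0.172 with PRDX1, and at 0.261 ± 0.0530 with RANKL and 1.25 ± 0.232 with both. It was under the filter of 0.5 FPKM in both groups without PRDX1 and entered the fit through the others, so its log2 differences of 0.62 and 0.84 are given as a description, with no test. C2 stayed far below Cfb, and whether reads of one were counted on the other was not tested. In the lectin pathway, Fcna, the pattern-binding protein ficolin A, rose with RANKL from 9.27 ± 0.407 to 28.4 ± 0.915 FPKM (log2 difference 1.52, adjusted p = 4.02e-08) and was lower by 0.81 when PRDX1 was added (adjusted p = 1.02e-05).

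Among the receptors, Itgax, the alpha chain of complement receptor CR4, rose with PRDX1 from 5.36 ± 0.130 to 13.9 ± 0.384 FPKM without RANKL (1.23, adjusted p = 1.23e-06) and by 0.81 with RANKL (adjusted p = 9.79e-06). Cd93, a surface receptor once described as a C1q receptor, fell with RANKL from 97.2 ± 2.52 to 16.7 ± 0.974 FPKM (−2.47, adjusted p = 5.39e-10) and stood at 36.1 ± 2.34 FPKM with both factors, with an interaction of 1.51 (adjusted p = 2.64e-06). Among the regulators, Cd59a, an inhibitor of the membrane attack complex, rose with RANKL by 1.04 (adjusted p = 2.78e-06), its near copy Cd59b by 0.60 (adjusted p = 0.0110), and C1qbp, a mitochondrial protein that binds C1q, by 0.85 (adjusted p = 1.02e-06). Reads of Cd59a and Cd59b may have been split between them in the authors' alignment, so both are uncertain, and Cd59b was no longer called without no PRDX1 + RANKL replicate 1 (0.37), with quantile normalization (0.53) or with upper quartile scaling (0.56).

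**Figure D4:**
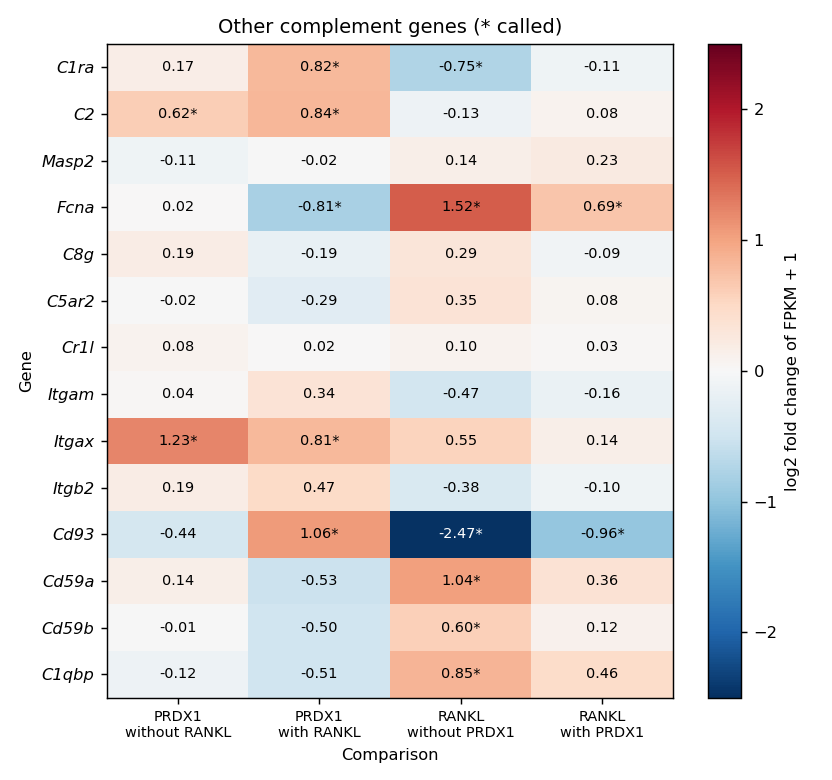
Log2 fold changes of FPKM + 1 (colour and printed value) of the 14 other complement genes tested, in rows, in the 4 comparisons, in columns. Stars mark genes past both thresholds. The stars of C2 carry no test, since C2 entered the fit only through the groups given PRDX1. The deepest blue cell is Cd93 with RANKL alone (−2.47).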

How the data were processed

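Total RNA of 8 libraries (4 groups of 2) was sequenced by the authors as 100 bp pairs. Per the labels and the deposited header, reads were aligned with HISAT2 to mm10 and counted with HOMER on RefSeq exons, on both strands and with 1 transcript per gene, and deposited as FPKM; versions are not given in the sources used here. Genes that overlap can therefore share reads. FPKM times transcript length gave whole reads for 100% of the genes checked (tolerance 0.1 read), hence library totals of 27284658 to 46171828, of which 24542578 to 41712973 reads were on genes. The top 10 genes held 4.75% to 9.69% of the latter. All per-sample columns were used (0 left out).

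With limma 3.58.1 (R 4.3.3), a single linear model of all 4 groups was fitted to log2(FPKM + 1), since FPKM values are not counts. The variance prior followed an intensity trend and 4 residual degrees of freedom remained. The script was tested on simulated data. The interaction is the PRDX1 effect with RANKL minus that without. A permutation test of 2 against 2 libraries cannot go below 0.333 and was not used. The voom fit on the recovered reads was an alternative, as were other pseudocounts, filters, scalings, a replicate block, and each library left out.

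The 9 members, the other complement genes, marker lists and motifs were chosen with earlier results of these data known. Genes named were all members, every other complement gene called in any comparison (1 gene of that list is not reported here), and the 2 nearest patterns to each member tested. The study's culture methods name 6-week-old male ICR mice as the source of OCP cells, which differs from the labels in strain and age. The labels were followed. RefSeq promoter entries were used for 6 of 9 members.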

Additional observations from a re-analysis of the deposited data

Results flagged for a closer look

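The effect of PRDX1 differed between the presence and absence of RANKL for all 8 members tested, by the interaction term of the limma fit at an adjusted p under 0.05, as it did for 23.1% of all genes tested when no minimum size was set. For Cfp it was lost under 7 of the 15 alternatives (adjusted p 0.0876 to 0.120), among them 6 of the 8 fits with 1 library left out. The difference, on the log2 scale, was 1.97 for C1qb, 1.69 for C1qa, 1.65 for C1qc, 1.12 for C5ar1, 0.78 for C3ar1 and 0.24 for Cfp (adjusted p = 0.0400), and it was −1.19 for Cfb and −0.55 for C3. Those of Cfp and C3 were under 1.5-fold. For C1qb the log2 effect of PRDX1 was −0.28 without RANKL and 1.70 with it, and for C5ar1 it was −0.20 and 0.92. For Cfb it was 4.27 and 3.09, and for C3 1.41 and 0.86. Groups of 2 libraries were too small to look for single libraries apart from their group.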

How the results depend on the processing

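Summed over both directions, the counts of called genes in the 5 comparisons stayed within 1.5 times their value under the 16 alternatives run, with 1 exception. The 2 other complement genes called for PRDX1 alone became 1 at a mean FPKM of at least 1, with quantile normalization, without no PRDX1 + no RANKL replicate 2 and without PRDX1 + no RANKL replicate 2, and ranged from 1 to 2 with 1 library left out. By direction, genes lower with PRDX1 alone went from 233 to 360 at a pseudocount of 0.1 and 389 under voom. The balance of genes higher and lower turned for RANKL alone, from 1383 and 1165 to 1088 and 1322 with quantile normalization and 1153 and 1302 with upper quartile scaling, and for RANKL on top of PRDX1, from 529 and 466 to 457 and 563 and to 466 and 542. Other complement genes lower with PRDX1 on top of RANKL went from 1 to 2 at a pseudocount of 0.1 and under voom. Calls of members held in 714 results, with 9 passing the threshold newly and 5 changing sign. The changes of sign concerned values not called: C1qa for PRDX1 alone ranged from −0.0145 (without no PRDX1 + no RANKL replicate 2) to 0.104 with 1 library left out, Cfb for RANKL on top of PRDX1 from −0.0291 to 0.00830 (without PRDX1 + RANKL replicate 1), Cfp for PRDX1 alone from −0.130 to 0.0183, and Cfp for RANKL alone from −0.0998 to 0.0488 (both highest values without no PRDX1 + no RANKL replicate 1). Cfp for RANKL alone was 0.00283 without no PRDX1 + RANKL replicate 1. The C3 interaction passed 1.5-fold at a pseudocount of 0.1 (−1.03), under voom (−1.11), without no PRDX1 + RANKL replicate 1 (−0.60) and without PRDX1 + RANKL replicate 2 (−0.62). C5ar1 with both factors against neither passed it in 5 alternatives (−0.59 to −0.60). Among the other complement genes, 10 results lost their call, for C1ra, C2, Cd59a and Cd59b. For C2 with PRDX1 alone these were 0.57 without no PRDX1 + no RANKL replicate 2, 0.54 without PRDX1 + no RANKL replicate 2 and 0.54 with quantile normalization. The values of C2 are a description, with no test. Cd59b with RANKL alone was 0.37 without no PRDX1 + RANKL replicate 1, 0.53 with quantile normalization and 0.56 with upper quartile scaling. The causes were not tested. By the replicate numbers of the titles, deviations of the libraries were little correlated between groups (0.00847 to 0.0965). The fit with a block of these numbers changed no call of a member. They differ from the numbers of source folders named in the file header, and a pairing by the latter was not tested. The fit on only the groups compared was not run for the interaction. Depth limited Serping1 alone among the members.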
